A study of Mus musculus with 6 samples.

Results

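The genes described here are those of the immunoglobulin constant regions and of the joining chain, which were chosen by symbol. Of 10 symbols, 8 had an entry among the 40993 genes of the deposited table: the heavy chain genes Igha, Ighm, Ighg1, Ighg2b, Ighg2c and Ighg3, the kappa light chain gene Igkc, and Igj, the older symbol of Jchain. Ighd and Iglc1 had no entry under these symbols and were not analysed here. Igha was higher in every kidney library from the adenine-enriched diet than in every library from the standard diet, by 13.5-fold in the means. Igkc, Igj, Ighg1, Ighg2b and Ighg2c were also higher on the adenine diet within each of the 3 library numbers, as were 54.7% of all genes tested. The means of Ighm, the Ighg genes, Igkc and Igj were set largely by 1 library, adenine 1. Ighm and Ighg3 were lower on the adenine diet within number 2.

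An antibody is built of paired heavy and light chains, each with a variable region that binds antigen and a constant region. The heavy chain constant gene in use sets the class: Ighm gives IgM, the first class that a B cell makes, the Ighg genes give the IgG subclasses found in serum, and Igha gives IgA, the class made mostly at mucosal surfaces. Class switching replaces one heavy chain constant gene by another and leaves the light chain as it was. Plasma cells, the secreting end stage of B cells, transcribe the chosen constant gene at very high levels. The joining chain links IgA and IgM monomers into the polymers that the polymeric immunoglobulin receptor carries across epithelia.

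Whole kidneys of C57BL/6 mice aged 2 months were taken after an adenine-enriched diet (3 libraries, adenine 1 to 3) or a standard diet (3 libraries, standard 1 to 3). Adenine fed in excess is oxidised to a poorly soluble product and is widely used to injure rodent kidneys. No allele, transgene or other agent is named for either group. The labels do not state that the libraries come from separate animals, so p-values cover only the spread among libraries, which may be technical. In bulk tissue, more cells of a type and more RNA per cell cannot be told apart.

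Levels are FPKM, fragments per kilobase of transcript per 1 M fragments, and ± is an SD over 3 libraries. Depth, read from the steps between low FPKM values, was about 17.5 to 23.5 M fragments in the adenine libraries and 17.25 to 20.35 M in the standard libraries. At these depths the 8 genes rested on approximately 3.3 fragments (Ighg3 in standard 3) to 89038 fragments (Ighm in adenine 1), and these numbers cover counting error only. They were computed on the full exon length in each entry, while depth was read with 200 bp taken off that length. The numbers may therefore be too high, most for short entries such as Igkc. The tubule and glomerulus genes used to check the tissue, among them Umod (2888 to 3505 FPKM in the adenine libraries and 2393 to 2636 FPKM in the standard libraries), were present in all 6 libraries. No pair of libraries held identical values. Together the 8 genes took 2.76%, 0.183% and 0.292% of the FPKM of genes spanning at least 300 bp in adenine 1 to 3, against 0.197%, 0.0483% and 0.0221% in standard 1 to 3.

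The heavy chain genes lie in 1 cluster on the minus strand of chromosome 12 of the mouse build GRCm38, in the order Ighm, Ighg3, Ighg1, Ighg2b, Ighg2c, Igha along the direction of transcription. In the deposited table Ighm spans bases 113418950 to 113422730 and Igha spans 113258768 to 113260236. Igkc lies on the plus strand of chromosome 6 (70726435 to 70726757) and Igj on the minus strand of chromosome 5 (88520512 to 88527891). For Igha, Ighg1, Ighg2b and Ighg3 the GENCODE M21 gene runs 3938, 3736, 3424 and 3441 bases beyond the deposited 3′ end. The last exons of the membrane-bound forms are therefore outside those entries, and the values do not separate secreted from membrane-bound transcripts.

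How well reads can be assigned to single IgG genes depends on how far these genes differ, so the first 90 bases of the constant region are given for the 4 Ighg genes (GRCm38, GENCODE M21 transcripts, 5′ to 3′, with the 29 positions at which the 4 differ in capitals).
Ighg2b, chr12:113307844-113307933: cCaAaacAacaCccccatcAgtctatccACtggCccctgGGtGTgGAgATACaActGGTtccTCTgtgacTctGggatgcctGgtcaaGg
Ighg2c, chr12:113288843-113288932: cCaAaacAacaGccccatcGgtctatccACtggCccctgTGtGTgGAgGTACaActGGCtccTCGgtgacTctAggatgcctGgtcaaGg
Ighg1, chr12:113330434-113330523: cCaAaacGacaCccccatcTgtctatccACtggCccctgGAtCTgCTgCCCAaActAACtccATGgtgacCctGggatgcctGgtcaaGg
Ighg3, chr12:113361143-113361232: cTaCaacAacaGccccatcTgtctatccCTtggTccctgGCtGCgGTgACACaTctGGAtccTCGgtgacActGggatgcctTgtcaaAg
Over these bases Ighg2c differed from Ighg2b at 7 positions, and Ighg1 and Ighg3 each at 17. Over the coding bases of the constant region Ighg2b and Ighg2c shared 85.9% of aligned bases with a longest common run of 78 bases. The other Ighg pairs shared 75.3% to 77.4% with runs of 28 to 41 bases. No pair shared a coding run as long as the 100-base reads, and untranslated bases were not compared.

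Igha and Ighm, whose levels turn out to behave differently, are much further apart. Their first 90 constant-region bases are given with the words of at least 8 bases that also occur in the other gene's transcript in capitals.
Igha, chr12:113260147-113260236: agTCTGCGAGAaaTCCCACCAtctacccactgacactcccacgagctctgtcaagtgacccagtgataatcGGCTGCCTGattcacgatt
Ighm, chr12:113422641-113422730: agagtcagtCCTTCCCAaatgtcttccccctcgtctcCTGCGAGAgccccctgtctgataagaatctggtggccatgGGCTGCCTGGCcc
Over their coding bases Igha and Ighm shared 57.5% of aligned bases, and their longest common run was 12 bases.

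Igha was the single gene of the 8 that rose past the threshold with diet alone in the model. It had 643, 289.7 and 417 FPKM in adenine 1 to 3, against 53.0, 21.5 and 25.2 FPKM in standard 1 to 3. The lowest adenine library was above the highest standard library, so the groups did not overlap. The mean was 449.8 ± 179 FPKM on the adenine diet and 33.2 ± 17.2 FPKM on the standard diet (n = 3 each), and the ratio within library numbers 1, 2 and 3 was 12.1, 13.5 and 16.5. On the log2(FPKM + 1) scale, which understates changes of low values, Igha rose by 3.75 (SE 0.41, 95% confidence interval 2.78 to 4.73, limma with Benjamini-Hochberg adjustment over 15431 genes, adjusted p = 0.00418). The adjusted p lay between 0.00293 and 0.0246 over the 17 alternative fits.

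**Figure D1:**
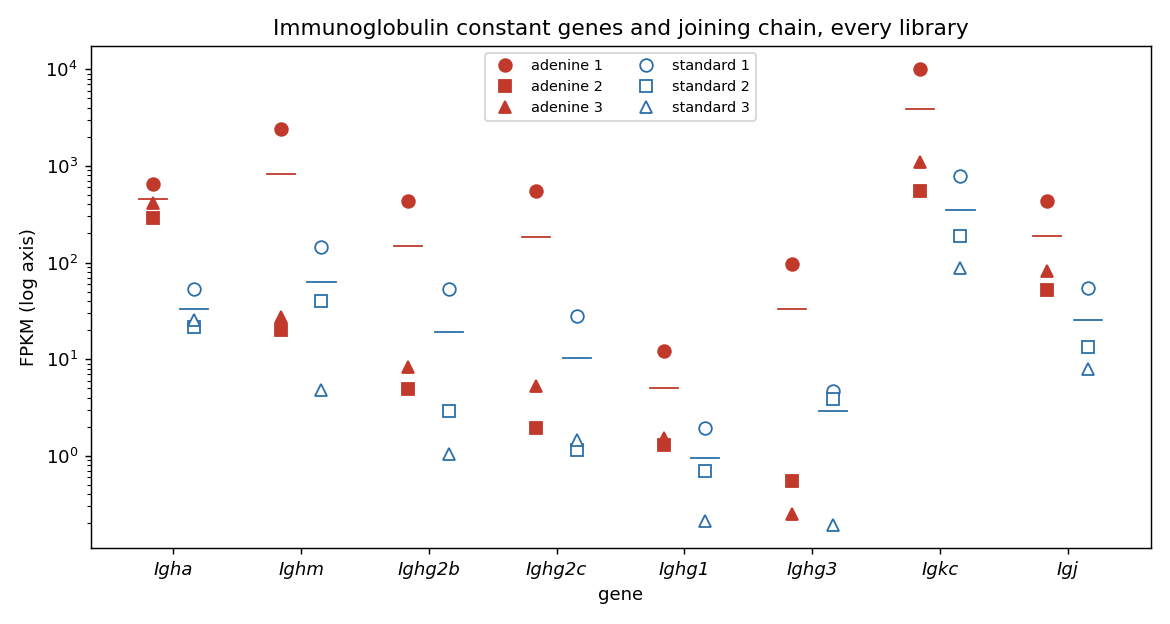
FPKM (log axis) of the 6 heavy chain constant genes, Igkc and Igj in each library; filled red symbols are adenine 1 to 3, open blue symbols standard 1 to 3, and lines are group means. Igha alone has all adenine points above all standard points; for the other heavy chain genes adenine 1 lies far above adenine 2 and adenine 3.

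Ighm, the IgM heavy chain, had 2432 FPKM in adenine 1 but 19.9 and 27.1 FPKM in adenine 2 and adenine 3, against 145, 40.3 and 4.85 FPKM in standard 1 to 3. Adenine 1 was 104 times the mean of adenine 2 and adenine 3, and adenine 2 and adenine 3 both lay inside the range of the standard libraries. The ratio of adenine to standard within numbers 1, 2 and 3 was 16.8, 0.495 and 5.58. Ighm did not pass the test (log2 change 1.78, 95% interval -3.08 to 6.64, limma adjusted p = 0.502). Without adenine 1 its log2 change was -0.44.

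The Ighg genes encode the IgG heavy chains, and none of the 4 passed the test, although all 4 were highest in adenine 1. Ighg2b had 429, 4.91 and 8.38 FPKM in adenine 1 to 3, against 52.8, 2.90 and 1.04 FPKM in standard 1 to 3. Ighg2c, the IgG2a-type gene of the C57BL/6 strain, had 545, 1.94 and 5.22 FPKM in adenine 1 to 3, against 28.1, 1.14 and 1.45 FPKM in standard 1 to 3. For both genes library 1 was the highest of its diet and the other libraries were below 10 FPKM. Their log2 changes were 1.93 and 2.01 (limma adjusted p = 0.438 and 0.459), and without adenine 1 they were -0.02 and -0.32. With the library number as a term in the model, which compares the diets within numbers, Ighg2b passed (adjusted p = 0.0347) and Ighg2c did not (adjusted p = 0.0932).

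Ighg1 was the least abundant of the 8 genes in adenine 1, standard 1 and standard 2. It had 12.1, 1.30 and 1.54 FPKM in adenine 1 to 3, against 1.93, 0.692 and 0.209 FPKM in standard 1 to 3, and it did not pass with or without the library number (limma adjusted p = 0.0512 and 0.207). Ighg3 had 97.4, 0.552 and 0.252 FPKM in adenine 1 to 3, against 4.66, 3.90 and 0.190 FPKM in standard 1 to 3. Adenine 2 and adenine 3 thus lay below 2 of the 3 standard libraries for Ighg3, and the ratio within number 2 was 0.142. Its log2 change was 0.84 (limma adjusted p = 0.706) and -1.20 without adenine 1.

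Igkc, the constant gene of the kappa chain, which most mouse antibodies carry, had the highest FPKM of the 8 genes in all 6 libraries. Its entry is short, 323 bases, which raises FPKM per fragment. In approximate fragments Ighm was above Igkc in adenine 1 (89038 against 74478) and standard 2 (1137 against 1059). Igha was above it in adenine 2 (7040 against 4207) and adenine 3 (7546 against 6205). It had 10135, 554 and 1098 FPKM in adenine 1 to 3, against 788, 187 and 87.7 FPKM in standard 1 to 3. Each adenine library was above the standard library of the same number, by 12.9, 2.97 and 12.5 times, but adenine 2 was below standard 1, so the groups overlapped. The mean was 3929 ± 5382 FPKM on the adenine diet and 354 ± 379 FPKM on the standard diet. The log2 change of 2.96 (95% interval 0.02 to 5.90) did not pass with diet alone (limma adjusted p = 0.0996) and passed with the library number as a term (adjusted p = 0.0149). It also passed with both libraries numbered 1 left out (adjusted p = 0.0351), an alternative chosen after seeing the data.

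The lambda light chain was represented by Iglc2. Its sequence differs little from that of Iglc3, which had no entry of its own, and more from that of Iglc1, as the first 90 constant-region bases show (chromosome 16, minus strand, GRCm38, with the 21 positions at which the 3 differ in capitals).
Iglc2, chr16:19198763-19198852: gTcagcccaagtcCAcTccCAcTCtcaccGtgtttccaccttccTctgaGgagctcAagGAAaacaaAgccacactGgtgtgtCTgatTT
Iglc3, chr16:19065592-19065681: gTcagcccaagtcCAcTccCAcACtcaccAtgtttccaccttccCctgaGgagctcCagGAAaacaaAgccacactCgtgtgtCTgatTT
Iglc1, chr16:19061982-19062071: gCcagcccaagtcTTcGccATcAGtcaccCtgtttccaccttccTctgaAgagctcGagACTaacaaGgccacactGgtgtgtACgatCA
Iglc2 and Iglc3 shared 96.5% of aligned coding bases with a longest common run of 79 bases. Iglc2 and Iglc1 shared 73.2% with a run of 19 bases. No common coding run was as long as the 100-base reads. Whether reads of Iglc3, placed with mismatches, entered the Iglc2 value was not tested. It had 77.5, 3.09 and 21.6 FPKM in adenine 1 to 3, against 4.87, 1.61 and 1.63 FPKM in standard 1 to 3. Adenine 1 and adenine 3 were above all standard libraries and adenine 2 was not, and the log2 change of 2.50 missed the threshold with diet alone (limma adjusted p = 0.0940). It passed without adenine 2 (adjusted p = 0.0302) and with the library number as a term (adjusted p = 0.0373). Ighe, the IgE heavy chain, was listed at 0.241, 0 and 0.498 FPKM in adenine 1 to 3 and at 0 in standard 1 to 3, and was too low to be fitted.

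Igj ranked the 6 libraries in the same order as Igkc, with standard 1 between adenine 2 and adenine 3. It had 436, 52.2 and 81.1 FPKM in adenine 1 to 3, against 54.5, 13.4 and 7.90 FPKM in standard 1 to 3. Within library numbers 1, 2 and 3 the adenine library was 8.0, 3.91 and 10.3 times the standard one. The log2 change was 2.69 (95% interval 0.41 to 4.97), with a limma adjusted p of 0.0653 for diet alone and 0.00758 with the library number as a term. With both libraries numbered 1 left out, the adjusted p was 0.0199.

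With diet alone, 1 of the 8 genes was called higher and none lower, at a background of 29.7% of all 15431 genes called higher and 6.84% called lower, so the share of the set called higher was below that of all genes. With the library number as a term, 4 of the 8 were called higher (Igha, Igj, Igkc and Ighg2b) and none lower, against 31.3% of all genes called higher and 7.34% called lower. With both libraries numbered 1 left out, 3 of 8 were called higher, against 10.6% of all genes. Igha remained the 1 gene called without adenine 1 (background 19.5%) and after median-of-ratios scaling (background 16.3%), and 4 of 8 were called with that scaling and the library number together (background 16.6%). The median log2 change of the 8 genes was 1.97, beside 0.25 for all genes tested, and under median-of-ratios scaling, which removes a shift common to most genes, these medians were 1.72 and -0.02. Without adenine 1, both medians were 0.20.

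**Figure D2:**
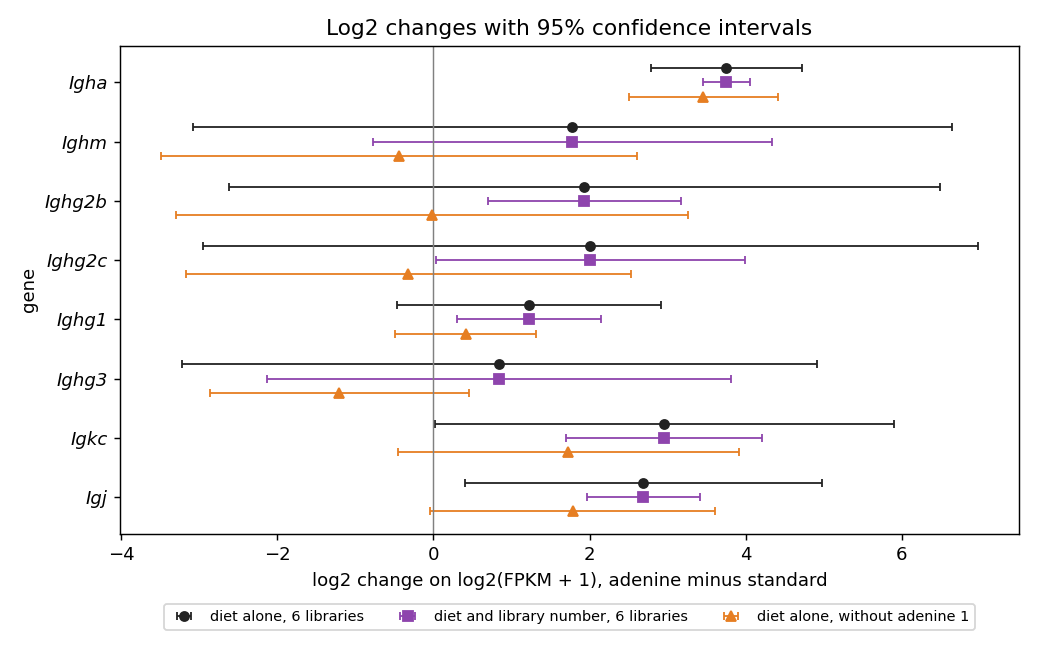
Log2 change (adenine minus standard) on the log2(FPKM + 1) scale with 95% confidence intervals for the 8 genes, from limma with diet alone (black circles), with diet and library number (purple squares) and with diet alone without adenine 1 (orange triangles). The Igha interval of 2.78 to 4.73 lies furthest from 0, and the values of Ighm, Ighg2b, Ighg2c and Ighg3 without adenine 1 are below 0.

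The libraries numbered 1 stood apart within both diets. Adenine 1 was the highest of the 6 libraries for 8 of the 8 genes, at a background of 48.8% of all genes tested. Library 1 was the highest of both its diets for 8 of 8 genes, at a background of 21.8%. Adenine was above standard within each of the 3 numbers for 6 of 8 genes (background 54.7%), the exceptions being Ighm and Ighg3 in number 2. Every adenine library was above every standard library for 1 of 8 (background 44.4%).

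The make-up of the heavy chains varied widely among the libraries of each diet. Igha provided 15.4%, 91.0% and 90.8% of the summed heavy chain constant FPKM in adenine 1 to 3, against 18.6%, 30.5% and 76.5% in standard 1 to 3. Ighm provided 58.5%, 6.25% and 5.89% in adenine 1 to 3, against 50.8%, 57.2% and 14.7% in standard 1 to 3. The 4 Ighg genes together provided 26.1%, 2.73% and 3.35% in adenine 1 to 3, against 30.6%, 12.3% and 8.77% in standard 1 to 3. The 2 libraries numbered 1 were thus alike in make-up, with Ighm the largest heavy chain gene in both and in standard 2, while Igha was the largest in adenine 2, adenine 3 and standard 3. The exact permutation test between the diets (two-sided) gave p = 0.6 for the Igha share, 0.4 for Ighm and 0.5 for Ighg, where 0.1 is the smallest p that 3 against 3 allows. Within numbers, the Ighg share was lower on the adenine diet in 3 of 3 pairs (exact sign-flip permutation p = 0.25, the smallest that 3 pairs allow), and the Igha and Ighm shares did not keep 1 direction (p = 0.5 for both).

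**Figure D3:**
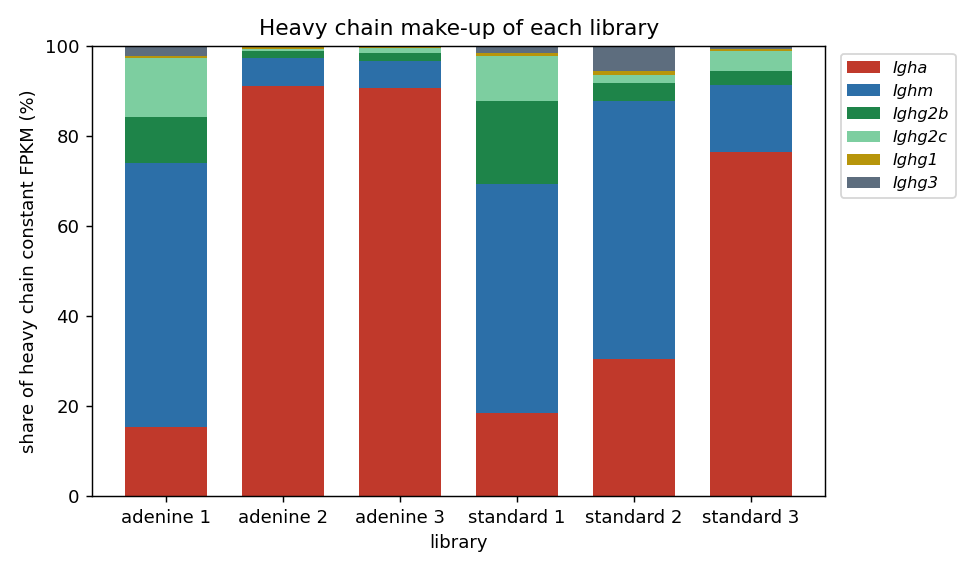
Share (%) of the summed heavy chain constant FPKM given by each of the 6 heavy chain genes in every library, adenine on the left and standard on the right. Igha fills 91.0% and 90.8% of adenine 2 and adenine 3 but 15.4% of adenine 1, where Ighm holds 58.5%.

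Igj per unit of Igha plus Ighm, the heavy chains that the joining chain links, was 0.142, 0.169 and 0.183 in adenine 1 to 3, against 0.275, 0.217 and 0.263 in standard 1 to 3 (ratio of FPKM). Every adenine library was below every standard library, with means of 0.164 ± 0.0207 and 0.251 ± 0.0308 (difference -0.0871, SD, n = 3 each, exact permutation p = 0.1, the smallest the design allows, and 0.6 adjusted over the 6 shares and ratios tested). The Iglc2 share of light chain FPKM was 0.759%, 0.555% and 1.93% in adenine 1 to 3, against 0.614%, 0.857% and 1.82% in standard 1 to 3 (exact permutation p = 1). Within IgG, Ighg2b made up 39.6%, 56.4% and 54.4% in adenine 1 to 3, against 60.4%, 33.6% and 36.1% in standard 1 to 3 (exact permutation p = 0.6).

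The V segments, which encode the variable part of the same chains, were counted as separate entries. Of 222 V segment entries, 165 passed the filter of a mean of at least 0.5 FPKM, and 26 of these rose and none fell. This is 15.8% of the fitted segments, read against the 29.7% of all genes called higher. The count of V segments called higher was 58 with the library number as a term (background 31.3%). It was 12 without standard 3 and 15 without standard 2, fits for which the share of all genes is not reported here. The median log2 change of the V segments was 2.15, beside 0.25 for all genes. Adenine 1 was the highest library for 133 of the 165, at a background of 48.8% of all genes. The filter used the mean over all 6 libraries, so a segment high in adenine 1 alone could pass it. Of the 222 entries, 164 were above 1 FPKM in adenine 1 and 56 in standard 3. The count of 133 and the median of 2.15 may therefore follow in part from the filter. In 40 segments, or 24.2%, every adenine library was above every standard library, below the background of 44.4%.

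Summed heavy chain V segments reached 32434, 1066 and 1333 FPKM in adenine 1 to 3, against 907, 197 and 82.2 FPKM in standard 1 to 3. Kappa V segments summed to 13005, 774 and 1309.7 FPKM in adenine 1 to 3, against 1228, 354 and 139 FPKM in standard 1 to 3. In both sums adenine 1 was far above the other 5 libraries, as it was for Ighm and Igkc. A single entry, Ighv1-2, had 17930.1 FPKM in adenine 1, which is 55.3% of the heavy V sum there, and was listed at 0 in the other 5 libraries. Its span of 123 bases is short, and FPKM of genes under 300 bp reach extreme values in this table. Ighv1-18, the next by mean level, had 1201, 11.8 and 36.1 FPKM in adenine 1 to 3, against 32.3, 23.7 and 2.78 FPKM in standard 1 to 3. Ighv1-12 had 849, 258 and 10.6 FPKM in adenine 1 to 3, against 32.2 FPKM in standard 1, and was listed at 0 in standard 2 and standard 3 (limma adjusted p = 0.0686, and 0.0152 with the library number as a term). None of these 3 segments was called with diet alone. The span of Ighv1-12, 294 bases, is also under 300 bp.

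Among the most abundant kappa segments, Igkv12-46 had 1012, 18.0 and 80.1 FPKM in adenine 1 to 3, against 71.3, 6.59 and 7.34 FPKM in standard 1 to 3 (limma adjusted p = 0.19, and 0.0178 with the library number). Igkv5-39 had 1087, 1.17 and 75.5 FPKM in adenine 1 to 3, against 9.34 and 3.51 FPKM in standard 1 and standard 3 and an entry of 0 in standard 2 (adjusted p = 0.185, and 0.0435 with the library number). Its span of 287 bases is under 300 bp. Igkv4-55 was high in both libraries numbered 1, with 827, 32.0 and 5.04 FPKM in adenine 1 to 3, against 251, 27.9 and 5.54 FPKM in standard 1 to 3 (adjusted p = 0.825). The lambda segment Iglv1 was called higher, with 225, 113 and 143 FPKM in adenine 1 to 3, against 51.0, 13.2 and 1.26 FPKM in standard 1 to 3 (limma adjusted p = 0.0355). Its call ended without adenine 1 (0.0885), adenine 2 (0.0806), adenine 3 (0.0583) or standard 2 (0.0828), with no filter (0.062) and with a robust variance prior (0.0829).

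The plasma cell list had a share of genes called higher that was near that of all genes. Of its 16 genes, 15 were fitted, and 5 rose and none fell (33.3% against 29.7% of all genes, median log2 change 0.77). Sdc1, the plasma cell surface proteoglycan CD138 that epithelia also carry, had 44.2, 33.5 and 20.6 FPKM in adenine 1 to 3, against 6.49, 7.72 and 4.86 FPKM in standard 1 to 3 (limma adjusted p = 0.00569). Slamf7, a receptor of plasma cells and other leukocytes, had 13.6, 6.30 and 4.81 FPKM in adenine 1 to 3, against 1.98, 1.20 and 1.62 FPKM in standard 1 to 3 (adjusted p = 0.0135). Genes of the secretory programme did not share 1 pattern. Xbp1, the transcription factor that expands the secretory pathway in plasma cells and other cells, had 158, 196 and 151 FPKM in adenine 1 to 3, against 98.5, 90.7 and 121 FPKM in standard 1 to 3 (adjusted p = 0.0166, and 0.148 after median-of-ratios scaling). Sec11c, a subunit of the signal peptidase, had 41.2, 26.8 and 26.7 FPKM in adenine 1 to 3, against 35.2, 30.6 and 32.7 FPKM in standard 1 to 3 (adjusted p = 0.73). Mzb1, a chaperone of immunoglobulin assembly, had 36.5, 1.16 and 2.77 FPKM in adenine 1 to 3, against 3.26, 1.07 and 0.538 FPKM in standard 1 to 3 (adjusted p = 0.286). Pou2af1, a coactivator of immunoglobulin genes, had 18.4 FPKM in adenine 1 and 0.0281 to 0.933 FPKM in the other 5 libraries (adjusted p = 0.234). Irf4 and Prdm1 of the same list did not pass (limma adjusted p = 0.086 and 0.163), and Irf4 passed without adenine 1 (0.0365). The 5 calls became 3 after median-of-ratios scaling (background 16.3%) or quantile normalization, 2 without adenine 2, standard 1 or standard 2, and 8 without adenine 3. With both libraries numbered 1 left out, 2 genes rose (background 10.6%).

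B cell genes were highest in adenine 1 in 9 of the 9 fitted (background 48.8%), and 3 of them rose, or 33.3% against 29.7% of all genes. Cd79a, a signalling chain of the B cell receptor, had 13.6, 0.875 and 0.716 FPKM in adenine 1 to 3, against 0.915, 0.184 and 0.186 FPKM in standard 1 to 3, and did not pass (limma adjusted p = 0.218). Ms4a1, which encodes CD20, had 10.4 FPKM in adenine 1 and at most 0.502 FPKM in any other library. The B cell list of 12 genes summed to 129.9, 29.4 and 28.2 FPKM in adenine 1 to 3, against 18.1, 14.4 and 7.74 FPKM in standard 1 to 3. The genes that rose, Cd37, Spib and Blnk, are also expressed outside the B lineage: Cd37 had 25.4, 6.23 and 7.74 FPKM in adenine 1 to 3, against 2.46, 0.957 and 0.553 FPKM in standard 1 to 3 (adjusted p = 0.0176), and Spib had an adjusted p of 0.0421. These 3 calls became 1 without adenine 2 or standard 1, 0 without standard 2 or standard 3, and 1 with no filter or with quantile normalization. They became 2 with both libraries numbered 1 left out (background 10.6%). The part of B cell content in the constant gene levels of adenine 1 was not tested.

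**Figure D4:**
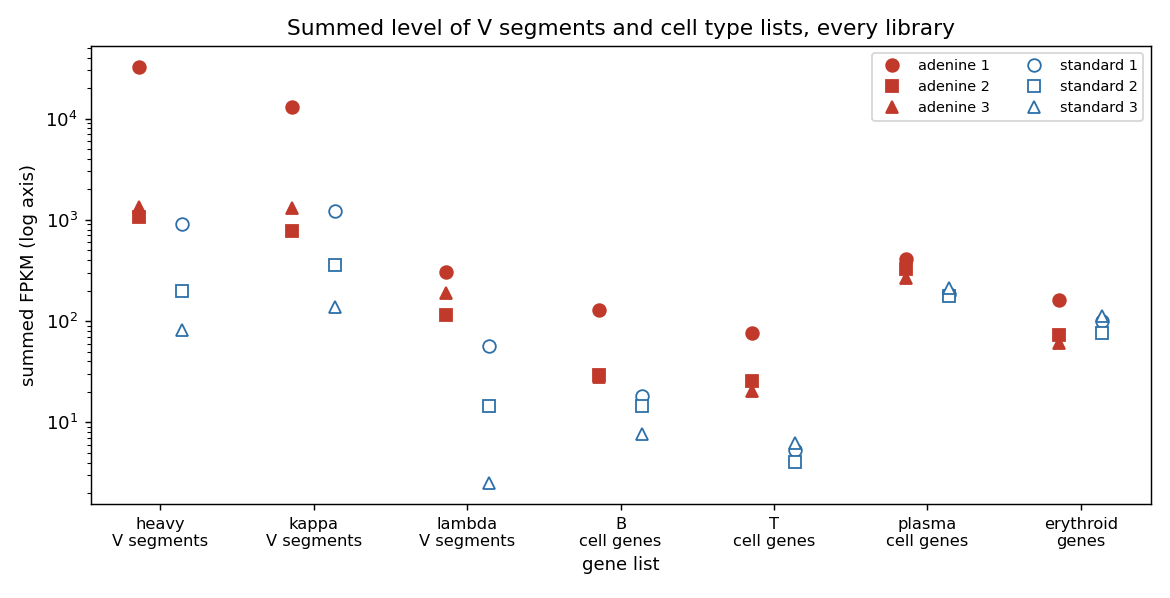
Summed FPKM (log axis) of the V segments of each chain and of the B cell, T cell, plasma cell and erythroid gene lists in every library; filled red symbols are adenine 1 to 3 and open blue symbols standard 1 to 3. Adenine 1 is the highest library in all 7 sums, and the plasma cell list spreads least, from 175 to 406 FPKM. Xbp1, which other cells also express, gave 90.7 of the 175 FPKM (standard 2) and 158 of the 406 FPKM (adenine 1). The plasma cell sum is therefore not a measure of plasma cells alone.

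Genes of T cells and of red cells were examined in the same libraries. All 8 T cell genes were highest in adenine 1 (background 48.8% of all genes), and every adenine library was above every standard library for 8 of 8 (background 44.4%), with sums of 76.0, 25.5 and 20.3 FPKM in adenine 1 to 3, against 5.36, 4.05 and 6.28 FPKM in standard 1 to 3. Of these, 7 rose (background 29.7%), among them Cd4, the helper T cell co-receptor, with 13.8, 6.03 and 5.14 FPKM in adenine 1 to 3, against 1.11, 0.414 and 1.30 FPKM in standard 1 to 3 (limma adjusted p = 0.00888), and Lck, the kinase of the T cell receptor (adjusted p = 0.0196, and 0.0546 to 0.064 without adenine 2, standard 1 or standard 2). The 7 calls became 2 without adenine 2, standard 1 or standard 2, 3 without standard 3, and 3 with no filter or with quantile normalization. With both libraries numbered 1 left out there were 7 (background 10.6%). Among the standard libraries the T cell sum was highest in standard 3, and the B cell sum in standard 1. Red cell genes summed to 163, 73.1 and 61.3 FPKM in adenine 1 to 3, against 99.3, 76.1 and 113 FPKM in standard 1 to 3, and no haemoglobin gene passed the test. Slc4a1, an anion exchanger that the kidney's intercalated cells also make, was the 1 gene of that list that fell (adjusted p = 0.039). It gave 21.4, 36.6 and 36.9 FPKM of these sums in adenine 1 to 3, and 61.3, 67.2 and 43.8 FPKM in standard 1 to 3. The sums are therefore not a measure of red cells alone. Hbb-bs, the most abundant haemoglobin gene, had 66.3, 18.0 and 11.9 FPKM in adenine 1 to 3, against 15.2, 3.78 and 36.6 FPKM in standard 1 to 3. The part of blood or of lymphoid tissue in the immunoglobulin values was not tested.

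Among 14 genes of class switching and hypermutation, 12 were fitted, and 5 rose and none fell (Ung, H2afx, Mad2l2, Msh6 and Polh, all general DNA repair genes, median log2 change 0.43 beside 0.25 for all genes). These are 41.7% of the fitted genes, against 29.7% of all genes called higher. Ung, the uracil glycosylase, had 4.73, 2.58 and 2.70 FPKM in adenine 1 to 3, against 0.882, 1.29 and 1.32 FPKM in standard 1 to 3 (limma adjusted p = 0.0186), and H2afx, a histone variant marked at DNA breaks, had an adjusted p of 0.0143. The 5 calls became 2 under median-of-ratios scaling (background 16.3%), and 0 under quantile normalization or with both libraries numbered 1 left out (background 10.6%). With 1 library left out they numbered 3, 1 and 8 without adenine 1, 2 and 3 (background 19.5% without adenine 1). Without standard 1, 2 and 3 they numbered 3, 2 and 2.

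Of 9 fitted receptors and carriers of immunoglobulin, 5 rose and 1 fell, against 29.7% of all genes called higher and 6.84% called lower. Fcgr3, a receptor for IgG on myeloid cells, had 47.1, 32.7 and 23.4 FPKM in adenine 1 to 3, against 4.56, 4.76 and 4.31 FPKM in standard 1 to 3 (limma adjusted p = 0.00332), and Fcer1g, the signalling chain that Fc receptors share, had 86.6, 60.7 and 42.1 FPKM in adenine 1 to 3, against 12.3, 12.2 and 10.2 FPKM in standard 1 to 3 (adjusted p = 0.00419). Fcgr1, Fcgr4 and Fcgr2b rose as well, with adjusted p of 0.00752, 0.0103 and 0.00946. Fcgr2b was no longer called under median-of-ratios scaling (adjusted p = 0.0727). With both libraries numbered 1 left out 3 of the 9 genes rose (background 10.6%) and 1 fell. Fcamr, a receptor for IgA and IgM, fell, with 1.35, 3.24 and 3.63 FPKM in adenine 1 to 3, against 8.37, 9.55 and 8.33 FPKM in standard 1 to 3 (log2 change -1.44, adjusted p = 0.0109). Pigr, the receptor that carries polymeric IgA across epithelium, had 54.5, 86.5 and 86.9 FPKM in adenine 1 to 3, against 78.6, 102 and 108 FPKM in standard 1 to 3, and passed as lower only with the library number as a term (adjusted p = 0.0435, and 0.226 with diet alone). Fcgrt, the neonatal Fc receptor, had 82.1 to 99.6 FPKM in the adenine libraries and 89.5 to 98.5 FPKM in the standard libraries (adjusted p = 0.475).

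Of 15 factors for plasma cell survival, homing and switching, 8 were fitted, and 4 rose and none fell (median log2 change 1.04), against 29.7% of all genes called higher. Tnfsf13b, which encodes the B cell survival factor BAFF, had 15.7, 8.05 and 7.37 FPKM in adenine 1 to 3, against 1.74, 0.425 and 1.07 FPKM in standard 1 to 3 (limma adjusted p = 0.0064). Tnfsf13, which encodes the plasma cell survival factor APRIL, rose (adjusted p = 0.0251), but not after median-of-ratios scaling (0.0624), without adenine 1 (0.0603) or with both libraries numbered 1 left out (0.0601). Another that rose was Tgfb1, the switch factor for IgA (26.9, 22.9 and 16.4 FPKM in adenine 1 to 3, against 6.88, 6.89 and 4.67 FPKM in standard 1 to 3, adjusted p = 0.00525). Cxcr4, the receptor that brings plasma cells to CXCL12, had 15.4, 9.31 and 9.53 FPKM in adenine 1 to 3, against 2.39, 1.81 and 4.05 FPKM in standard 1 to 3 (adjusted p = 0.00787). Cxcl12 itself did not pass (adjusted p = 0.941). Ccl28, a chemokine for IgA plasma cells, had 9.94, 13.0 and 49.7 FPKM in adenine 1 to 3, against 19.97, 15.7 and 9.36 FPKM in standard 1 to 3 (adjusted p = 0.633). Cxcl13, the chemokine of B cell follicles, had 13.3 FPKM in adenine 1, 0.867 and 0.910 FPKM in adenine 2 and adenine 3, and 0.228 to 0.738 FPKM in the standard libraries (adjusted p = 0.211). Of 6 genes of lymphoid stroma, 3 were fitted and Ccl21a alone rose (adjusted p = 0.0118, and 0.0508 after median-of-ratios scaling).

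The genes outside the immunoglobulin loci whose levels most resembled those of Igkc were sought among 14002 genes by Pearson's r over the 6 libraries on the log2(FPKM + 1) scale. The highest was 3110052M02Rik (r = 0.997), followed by Shisa2 (r = 0.995), Zfp945, Spata1, Dio3os, Tada3, Tmem160 and AI413582 (r = 0.981). None of the 8 is a gene of the lists above. Their levels were low and their spread differed: 3110052M02Rik had 5.18, 3.5 and 3.99 FPKM in adenine 1 to 3, against 3.75, 3.19 and 2.78 FPKM in standard 1 to 3, and Dio3os had 5.65, 2.21 and 2.06 FPKM in adenine 1 to 3, against 2.06, 1.03 and 0.710 FPKM in standard 1 to 3. As many as 518 genes reached r of at least 0.9. With 6 libraries that share 2 diets and 3 numbers, these values are a description of the order of the libraries.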

How the data were processed

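Whole-kidney RNA of 6 libraries, 3 from mice on an adenine-enriched diet and 3 from mice on a standard diet, was sequenced as 100-base paired-end reads, per the labels' protocols. Tools named in the submitters' processing notes are bcl2fastq 2.0, TopHat and Cufflinks 2.1.1, with mm10 and GRCm38 as genome builds. Neither an annotation nor a TopHat version is given in the sources used here. FPKM values per gene were deposited by the authors, in columns named by diet and library number. A second table, with 6 columns of samples not in the list, was left out.

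FPKM are not counts, so no count test was run. Depth was estimated from the steps between low FPKM values with a nominal fragment of 200 bp; 65.5% to 73.4% of the values examined were whole to within 0.15 fragments. Genes under 300 bp held 90.1% of all FPKM of standard 2 and 11.2% to 26.3% of those of the other libraries. The diets were compared with limma 3.58.1 in R 4.3.3 on log2(FPKM + 1), with an intensity trend in the prior variance and two-sided tests. Fitted were 15431 genes whose mean FPKM was 0.5 or more. The Benjamini-Hochberg adjustment ran over all of them, with a threshold of 0.05. The code was tested on simulated data. Folds are ratios of mean FPKM. Shares were compared by exact permutation over libraries. GENCODE M21 held 97.9% of the identifiers and gave the transcript sequences.

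The main model held diet alone. Deviations from the diet means correlated at 0.257, 0.143 and 0.181 between libraries of equal number, and at -0.187 to 0.0376 between the others; without immunoglobulin genes the values for equal numbers were 0.144, 0.151 and 0.156. Pairing of the libraries by number was therefore used only in alternative fits, with the library number as a term, and in sign-flip tests of shares. This pairing comes from the data, not from any label, and with 3 libraries per diet it can arise by chance. Values with the library number as a term are given where they change a call.

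The 10 symbols and the gene lists were chosen with earlier results of these data known. Named are all the constant genes, the 3 V segments of each chain with the highest mean, up to 2 rises and 2 falls with the largest change in each list (or its smallest p), and the 8 genes most like Igkc. Others, among them Xbp1, Sec11c, Mzb1, Pou2af1, Cd79a, Ms4a1, Blnk, Pigr, Fcgrt, Tgfb1, Tnfsf13, Ccl28 and Cxcl13, were chosen after their values were seen. Not every gene of the lists is reported here by name. Alternatives were the pseudocount, the filter, the scaling, the variance prior, the library number as a term, the omission of each library and of both libraries numbered 1, and fragments in place of FPKM for shares. The share of all genes called higher also differed between fits, from 10.6% to 31.3% where it is given. It is not reported here for quantile normalization, for no filter or for omission of a single library other than adenine 1. Counts in those fits cannot be read against all genes.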

Additional observations from a re-analysis of the deposited data

How the results depend on the processing

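The call of Igha held in all 17 alternative fits. The replicate block took the count of called constant genes to 4, against 1 with diet alone, and the block with median-of-ratios scaling also gave 4. It was 3 with both libraries numbered 1 left out, an alternative chosen after seeing the data, and 1 whichever single library was left out. Of 165 V segments fitted, 26 were called with diet alone, all higher (15.8%, against 29.7% of all genes called higher). With the block 58 of the 165 were called, all higher, against 31.3% of all genes. With the block and that scaling 51 were called, 50 higher and 1 lower, against 16.6% of all genes called higher. With 1 library left out the count was 12 to 34. Among those fits the share of all genes is given only without adenine 1, where 20 segments were called higher (background 19.5%). Among genes of the lists the block ended the calls of Slc4a1 and Polh and added those of Pigr and Ccl19, among others. It also added Iglc2 and the V segments Ighv1-12, Igkv12-46, Igkv5-39 and Iglv3, and, of the genes most like Igkc, Dio3os and AI413582. With 1 library left out, log2 changes ran from -0.44 to 2.99 for Ighm, -0.0183 to 3.35 for Ighg2b, -0.32 to 3.45 for Ighg2c, -1.20 to 1.95 for Ighg3, -1.36 to 2.19 for Igkv4-55 and -0.19 to 1.69 for Iglv3. With both libraries numbered 1 left out, Ighg3 was at -0.79. Quantile normalization turned 3110052M02Rik (-0.21), Shisa2 (-0.16), Zfp945 (-0.12), Spata1 (-0.29), Tada3 (-0.0497) and Tmem160 (-0.11). The difference between diets ran from -14.2 to 0.195 percentage points for the Ighg share and from -0.441 to 0.347 for the Iglc2 share with 1 library left out. The cause of these reversals was not tested. Depth limits Ighg1, Ighg3 and Ighe most, since they rest on few fragments in several libraries.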

Other observations

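Which V segment led differed between libraries, and the spans of Ighv1-2, Ighv1-12 and Igkv5-39 are under 300 bp, where FPKM can be extreme. Among heavy chain segments, the most abundant was Ighv1-2 in adenine 1 (55.3% of the heavy V FPKM), Ighv1-12 in adenine 2 (24.2%) and Ighv1-26 in adenine 3 (10.3%), against Ighv1-53 in standard 1 (16.8%), Ighv1-18 in standard 2 (12.0%) and Ighv1-39 in standard 3 (8.48%). Among kappa segments it was Igkv5-39 in adenine 1 (8.36%) and Igkv4-61 in both adenine 2 (19.1%) and adenine 3 (10.6%), against Igkv4-55 in standard 1 (20.5%), Igkv9-120 in standard 2 (8.57%) and Igkv4-53 in standard 3 (19.2%). Iglv1 led the lambda segments in all 6 libraries, with 73.9%, 98.7% and 76.5% in adenine 1 to 3, against 89.4%, 91.7% and 50.2% in standard 1 to 3.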
